A study of Homo sapiens with 12 samples.

Results

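Transcripts of 10 C-type lectin genes were followed across fever-like heat and thermomiR inhibition in macrophage-like THP-1 cells: CLEC7A, CLEC4D, CLEC4E, CLEC5A, CLEC4A, CLEC12A, CD209, CLEC2B, CD69 and CLEC11A. They were chosen by gene symbol, and every probe set that the platform's gene table assigns to 1 of these 10 symbols was taken, which gave 37 of the 49395 probe sets on the array and 10 of the 18132 genes that have a probe set of their own. THP-1 is a human monocytic leukaemia line that becomes macrophage-like when treated with the phorbol ester PMA, here at 100 ng/ml for 48 hours. There were 4 groups of 3 arrays. In the temperature experiment, differentiated cells were kept at 37 °C or at 40 °C, with harvests at 2, 8 and 24 hours named in the protocol and no statement of which one the arrays hold. In the other experiment, cells labelled as wild type and control were compared with cells labelled siRNA and siThermomir; by the protocol, these cells became macrophage-like at 40 °C, received a hairpin inhibitor of a microRNA together with a GFP plasmid by nucleofection, and were sorted 24 hours later on GFP. A thermomiR is a microRNA that responds to temperature. Which microRNA was inhibited on these arrays is not stated, nor whether the controls received the non-human control inhibitor. All cells are of 1 line, and the labels do not say whether the arrays of a group stem from separate cultures; the p-values therefore reflect only how far these arrays scatter, which can be technical.

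C-type lectin receptors are surface proteins with a shared carbohydrate-recognition fold, by which macrophages and dendritic cells sense fungi, mycobacteria and dying cells. The activating ones signal through the kinase SYK, either by a tail motif of their own, as CLEC7A (Dectin-1, the receptor for fungal beta-glucan) does, or by the adaptors FCER1G and TYROBP, and then through CARD9, BCL10 and MALT1 to NF-kB. The inhibitory ones, among them CLEC12A and CLEC4A, recruit phosphatases such as PTPN6. CLEC11A differs from the others in being a secreted growth factor for blood and bone cells, so the family label covers its fold and not a receptor function.

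On chromosome 12 lie 7 of the 10 genes in the natural killer gene complex, in the RefSeq order CLEC4A, CLEC4D, CLEC4E, CD69, CLEC2B, CLEC12A and CLEC7A. CD209 and CLEC11A lie on chromosome 19 and CLEC5A on chromosome 7. Sequences before the transcription start were held for 5 of the 10 genes. Those of CLEC12A and CD209 are shown because, of these 5 genes, they are the 2 that passed the test in both experiments. Each run holds the 250 bases before the RefSeq start, 5′ to 3′ on the gene's strand, from GRCh38.p14, with matches to the motifs searched in capitals; the CLEC12A window is chr12:9971159-9971408 on the plus strand and the CD209 window chr19:7747535-7747784 on the minus strand.
CLEC12A: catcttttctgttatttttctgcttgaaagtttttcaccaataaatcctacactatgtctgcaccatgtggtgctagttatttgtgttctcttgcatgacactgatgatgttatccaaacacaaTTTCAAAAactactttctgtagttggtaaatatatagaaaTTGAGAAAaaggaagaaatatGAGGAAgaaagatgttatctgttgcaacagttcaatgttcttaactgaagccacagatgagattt
CD209: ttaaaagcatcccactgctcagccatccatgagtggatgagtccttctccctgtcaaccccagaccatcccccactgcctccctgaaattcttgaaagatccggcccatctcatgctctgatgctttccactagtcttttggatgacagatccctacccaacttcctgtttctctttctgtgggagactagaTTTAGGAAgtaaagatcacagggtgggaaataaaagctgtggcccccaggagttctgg
The motifs named here were searched on both strands, with no overlap among the matches found. The capitals in CLEC12A mark 2 matches to TTNNGNAA, a C/EBP motif, and 1 match to GAGGAA, a PU.1 motif, and those in CD209 mark 1 match to TTNNGNAA. C/EBP factors and PU.1 are transcription factors of myeloid cells. TTNNGNAA was held by 33.2% and GAGGAA by 23.6% of the 35116 windows of this length in the table. Neither window holds the heat shock element GAANNTTC (5.78% of all windows), the AP-1 motif TGANTCA (6.57%) or the NF-kB motif (9.96%). A match is a description of these letters, not a site shown to be bound.

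Of the 10 genes, 5 were bright enough to be tested across all genes: CLEC7A, CLEC12A, CD209, CLEC2B and CLEC11A. Each gene was represented by its brightest probe set, taken by the mean over all 12 arrays. The other 5 genes lay below a mean log2 level of 4.48, the 30th percentile over all non-control probe sets. Because that mean runs over all 12 arrays, CLEC7A passed through its level in the temperature experiment alone, so the members that passed are not a neutral sample of the family. Among probe sets, 13 of the 37 were called lower and none higher at 40 °C (2 at an unadjusted p under 0.05), where 11.8% of all probe sets were called lower, 12.8% higher and 24.6% either way (limma, Benjamini-Hochberg adjusted p under 0.05 over 49293 probe sets). With the inhibitor, 5 were called lower and 2 higher, beside 15.2% and 14.8% of all probe sets. Probe sets of 1 gene share its transcript and are not independent of each other.

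**Figure D1:**
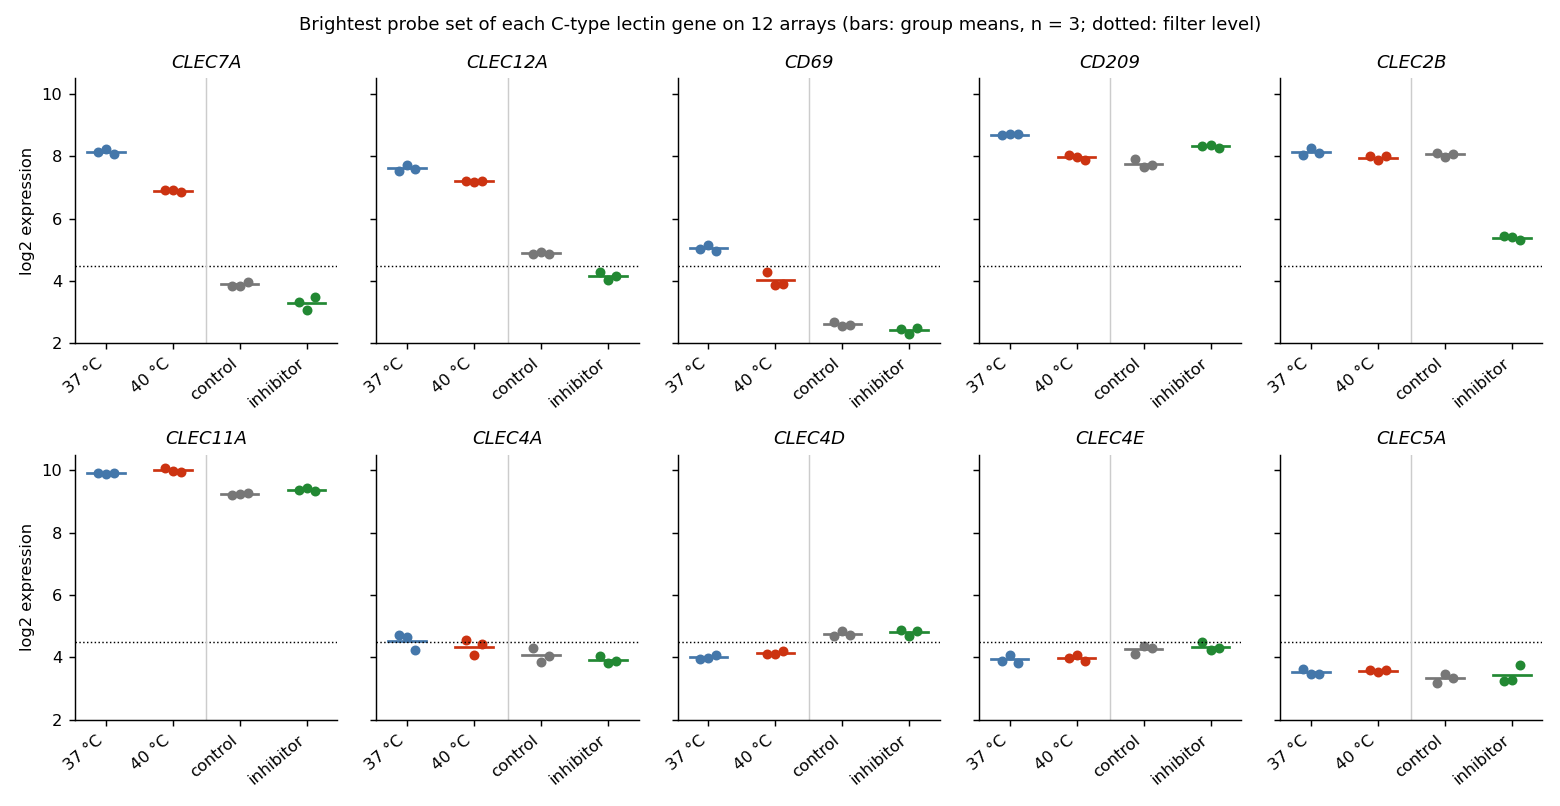
Log2 expression (y axis) of the brightest probe set of each of the 10 genes in the 4 groups (x axis); points are single arrays, bars are group means over 3 arrays, and the dotted line is the filter level of 4.48. CLEC7A, CLEC12A, CD69 and CD209 are lower at 40 °C than at 37 °C on every array, and CLEC2B is lower on every inhibitor array than on any other array.

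Array medians spanned 5.72 to 5.87, and pairs of arrays within a group had r from 0.99393 to 0.99838 over the probe sets. Of 10 macrophage and monocyte markers with a probe set, 9 reached the filter level in both experiments, and MRC1 did not (means of 2.94 to 3.30). Of 11 lymphocyte and natural killer cell markers, 7 reached it in the temperature experiment and 9 in the other, with the T cell genes CD2, CD3D, CD3E and CD3G at means of 3.75 to 5.28, the B cell genes MS4A1 at 3.89 to 4.34 and CD79A at 5.45 to 5.92, and GNLY (9.50 to 11.36) and NCAM1 (9.13 to 10.11) well above. Of the 8 tested genes of this list, 2 rose and 0 fell at 40 °C, and 2 rose and 1 fell with the inhibitor. The mean log2 level of the lymphocyte list was 5.73 to 5.79 on the 37 °C arrays, 5.73 to 5.83 at 40 °C, 6.02 to 6.16 in controls and 6.09 to 6.33 with the inhibitor. That of the macrophage list was 8.65 to 8.71, 8.80 to 8.91, 8.57 to 8.61 and 7.90 to 8.04 in the same order. Of its 9 tested genes 6 rose and 2 fell at 40 °C, and 1 rose and 6 fell with the inhibitor. All 6 tested genes of 9 promyelocyte and neutrophil markers fell in both comparisons, and the mean of that list was 6.99 to 7.07 at 37 °C, 6.58 to 6.66 at 40 °C, 6.38 to 6.40 in controls and 5.40 to 5.50 with the inhibitor. Of 6 tested dendritic cell markers, 1 fell at 40 °C and none was called with the inhibitor, and of 3 erythroid markers none was called in either. LAMP3, a listed dendritic cell marker that was not tested, read 5.98 ± 0.13 in controls and 3.99 ± 0.07 with the inhibitor. It lay at 3.73 at 37 °C and 3.83 at 40 °C, below the filter level. The part of these shifts in the lectin values was not tested. In bulk RNA, fewer cells of a type and less RNA per cell cannot be told apart. Poly-A spikes, bacterial RNAs added before labelling, read 7.66 to 7.73 at 37 °C and 7.73 to 7.80 at 40 °C, but 6.81 to 7.47 in controls and 5.51 to 6.0 with the inhibitor.

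The temperature comparison asked what a fever-range temperature does to the lectin transcripts. The transcripts of the fungal receptor CLEC7A, the inhibitory receptor CLEC12A and the adhesion receptor CD209 fell at 40 °C, by 2.39-fold, 1.33-fold and 1.66-fold. No tested member rose, also not at an unadjusted p under 0.05 (0 of 5). CD69, an early activation antigen of leukocytes, also fell in the fit of every probe set, by 1.02 on the log2 scale. The 3 genes called lower of 5 tested stand beside 17.7% of 13909 genes called lower, 21.6% called higher and 39.3% called in all. Over all 37 member probe sets the median difference was −0.09, and over all probe sets on the array it was 0.0067.

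CLEC7A gave log2 values of 8.15, 8.23 and 8.07 at 37 °C and of 6.91, 6.91 and 6.86 at 40 °C on its brightest probe set. All 40 °C arrays lay below all 37 °C arrays, by much more than the arrays of a group differed. The difference was −1.26 (SE 0.05, 95% confidence interval −1.38 to −1.13; limma, adjusted p = 5.74e-06), which ranks CLEC7A 31st among the decreases of all genes tested. Only 0.489% of genes were called lower by at least 2-fold. The name of this probe set ends in _x_at, which marks probes that may also read other transcripts. The next brightest, whose name ends in _a_at and marks transcripts of 1 gene, gave 8.15, 8.26 and 8.20 against 6.92, 6.77 and 6.88, so both tell the same decrease.

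CLEC7A has 12 probe sets. Of these, 8 were called lower at 40 °C, with differences from −1.35 to −0.52, and 0 were called higher. These 8 were the ones whose 37 °C mean reached 4.48. The other 4 lay below that level in both groups and differed by −0.01 to 0.06; the brightest of them, at 4.40 and 4.41, was just under it. A mean over all 12 probe sets fell below the filter, so CLEC7A was not tested that way.

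**Figure D2:**
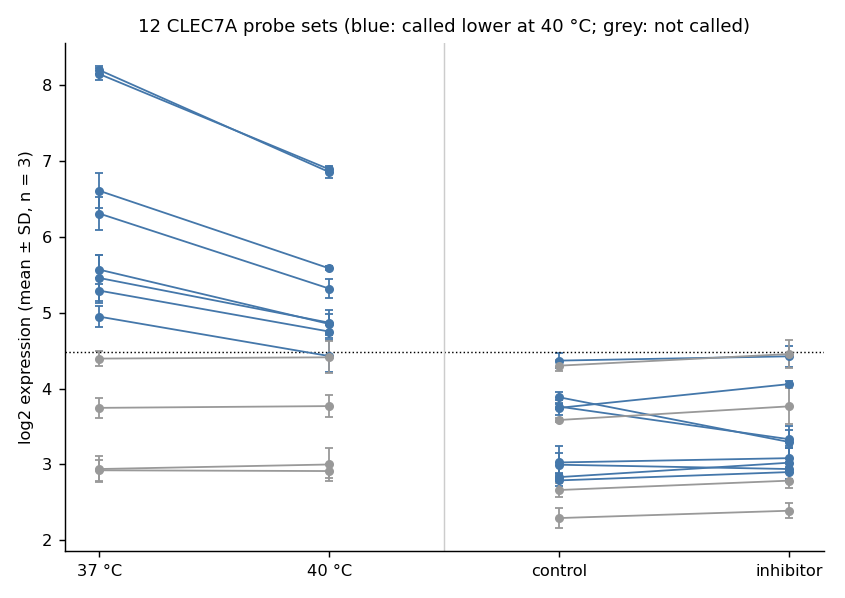
Mean log2 expression (y axis) ± SD over 3 arrays of each of the 12 CLEC7A probe sets in the 4 groups (x axis), with the filter level of 4.48 dotted. The 8 blue probe sets were called lower at 40 °C, and all 12 lie below the filter level in both groups of the inhibitor experiment.

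The other activating receptors were near background. CLEC4E (Mincle) and CLEC4D are receptors for mycobacterial cord factor that work with FCER1G, and CLEC5A signals through TYROBP. The brightest CLEC4E probe set lay at 3.93 ± 0.14 at 37 °C and 3.97 ± 0.10 at 40 °C (SD, n = 3 each), a difference of 0.04 with a 95% confidence interval of −0.15 to 0.24. CLEC4D was at 3.96, 3.99 and 4.08 at 37 °C and at 4.10, 4.11 and 4.21 at 40 °C; these arrays did not overlap, but the difference of 0.13 was not called (interval −0.01 to 0.27, limma on all probe sets, adjusted p = 0.172). Of the 3 CLEC5A probe sets, the dimmest was called lower, by 0.18 at means of 2.63 and 2.45 (adjusted p = 0.0444), while the brightest differed by 0.06 (interval −0.08 to 0.20). None of the CLEC5A means came near the filter level, so this call rests on the lowest part of the scale.

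Of the inhibitory receptors, CLEC12A gave 7.52, 7.73 and 7.58 at 37 °C and 7.20, 7.19 and 7.20 at 40 °C. The groups did not overlap, and the 40 °C arrays were almost identical to each other. The difference was −0.41 (SE 0.06; limma, adjusted p = 0.00104). The second CLEC12A probe set was also called lower (−0.52), and the third, the dimmest, was not (−0.31, interval −0.57 to −0.05). CLEC4A (DCIR), with 1 probe set, read 4.70, 4.65 and 4.25 at 37 °C and 4.55, 4.06 and 4.42 at 40 °C. These ranges overlapped, and the difference of −0.19 had an interval of −0.54 to 0.16.

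CD209 (DC-SIGN) binds mannose-rich glycans of viruses and mycobacteria and takes up what it binds. Its brightest probe set read 8.67, 8.71 and 8.71 at 37 °C and 8.04, 7.98 and 7.87 at 40 °C. All 3 heated arrays lay below the others, with a difference of −0.73 (SE 0.05; limma, adjusted p = 4.69e-05). The other 3 CD209 probe sets differed by −0.15 to −0.03 and were not called; of them 1 had a mean at 37 °C that reached the filter level, at 4.79. With the mean of the 4 probe sets as the gene's value, the difference was smaller, at −0.24, and still called (adjusted p = 0.0042).

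CD69 and CLEC2B are neighbouring lectins of leukocyte activation; CD69 retains cells in tissue, and CLEC2B (AICL) is the ligand of the natural killer cell receptor KLRF1. CD69 gave 5.01, 5.16 and 4.97 at 37 °C and 4.30, 3.87 and 3.90 at 40 °C on its brightest probe set, whose suffix _s_at marks probes that several transcripts may share. The groups did not overlap, and the 40 °C arrays lay below the filter level. The difference was −1.02 (SE 0.12; limma on all probe sets, adjusted p = 0.000503), and without the filter on dim genes the adjusted p was 0.000444. The other 2 CD69 probe sets lay below 3 and differed by −0.01 and 0.03. CLEC2B read 8.03, 8.28 and 8.10 at 37 °C and 8.0, 7.87 and 8.0 at 40 °C. Its groups lay side by side without overlap, and the difference of −0.18 missed the threshold (interval −0.35 to −0.01; limma, adjusted p = 0.0898). It passed after quantile normalization (adjusted p = 0.0431) and with trend and robust eBayes (0.0304).

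The secreted CLEC11A was bright throughout, at 9.93, 9.89 and 9.90 at 37 °C and 10.08, 9.99 and 9.94 at 40 °C. The difference of 0.10 was not called (interval −0.02 to 0.21), and the other 4 probe sets differed by 0.07 to 0.18. The mean of its 5 probe sets was called higher (0.12, adjusted p = 0.0453). All 5 tested members had groups that did not overlap, which held for 49.5% of all genes tested.

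**Figure D3:**
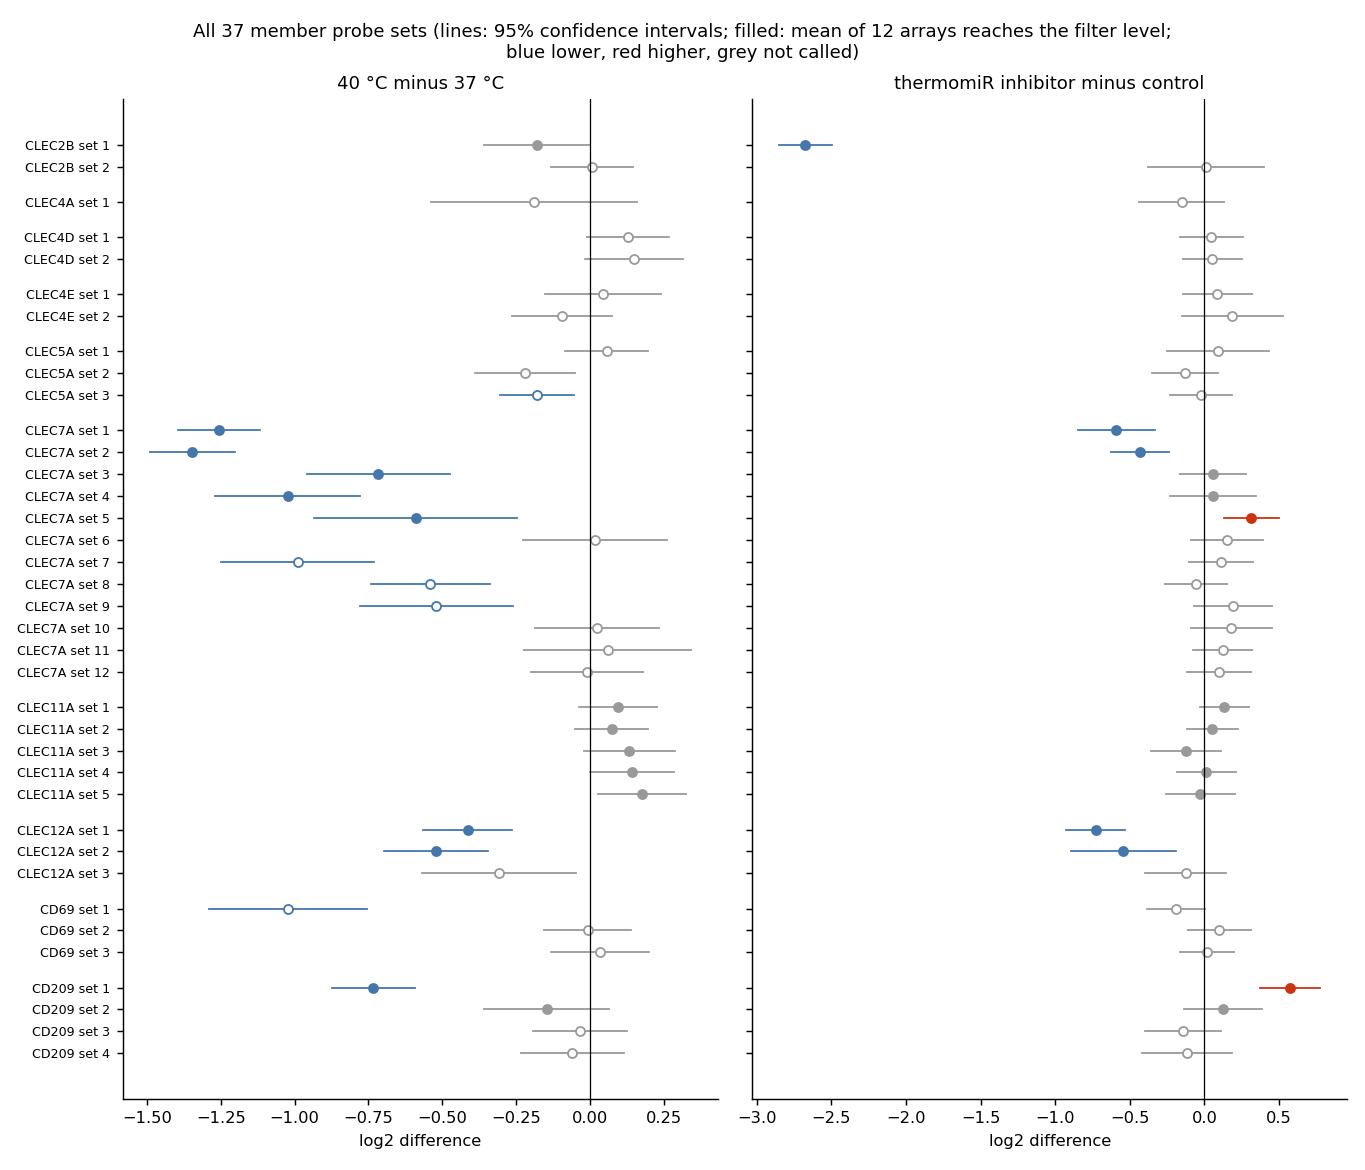
Log2 difference (x axis) of each of the 37 probe sets (y axis, numbered from brightest to dimmest within a gene) for 40 °C minus 37 °C and for inhibitor minus control, with 95% confidence intervals; blue is called lower, red higher and grey not called, and filled points have a 12-array mean at or above the filter level. The blue points on the left are 8 CLEC7A, 2 CLEC12A, 1 CD69, 1 CD209 and 1 CLEC5A probe sets, and CLEC2B on the right stands apart at −2.67.

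The inhibitor comparison asked how the same transcripts differ under a thermomiR inhibitor. CLEC2B, the ligand of KLRF1, fell most among the members, by 6.38-fold. CLEC12A fell, from just above the filter level to below it, and CD209 rose by 1.49-fold on its brightest probe set, the 1 of 4 that was called. CLEC7A was also called lower, but from values below the filter level in both groups, so its call is given without a fold. The 3 members called lower and 1 called higher of 5 tested stand beside 19.6% of 13909 genes called lower, 25.7% called higher and 45.2% called in all. Over all 37 member probe sets the median difference was 0.05, and over all probe sets on the array it was 0.07.

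CLEC2B read 8.11, 7.99 and 8.08 in controls and 5.43, 5.42 and 5.31 with the inhibitor. The inhibitor arrays lay far below the controls, and also below every array of the temperature experiment, while staying above the filter level. The difference of −2.67 (SE 0.06, interval −2.82 to −2.52; limma, adjusted p = 1.3e-06) ranks 10th among the decreases of all genes tested, of which 2.70% were called lower by at least 2-fold. The second CLEC2B probe set lay below the filter in every group and differed by 0.01 (interval −0.38 to 0.40), so with the mean of both the difference was −1.33 (limma, adjusted p = 2.06e-05). CLEC2B was the one member whose call held with the poly-A spike level as a covariate (−2.70, adjusted p = 0.00887, the highest over its 16 alternatives). KLRF1, its receptor, read 4.89 ± 0.16 in controls and 4.27 ± 0.15 with the inhibitor and was called lower (limma, adjusted p = 0.0027), at means on either side of the filter level. Of the 4 KLRF1 probe sets, 1 was called lower and 0 higher.

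CLEC12A gave 4.86, 4.92 and 4.88 in controls and 4.28, 4.02 and 4.17 with the inhibitor. The groups did not overlap, and the inhibitor arrays lay below the filter level of 4.48, so the size of the fall is uncertain. The difference was −0.73 (SE 0.08; limma, adjusted p = 0.00029). CLEC7A read 3.85, 3.84 and 3.97 in controls and 3.33, 3.07 and 3.49 with the inhibitor. Its difference of −0.59 (SE 0.11; limma, adjusted p = 0.00357) came from values that were all below the filter level, where a size cannot be read. Of its 12 probe sets, 2 were called lower, 1 higher (0.31) and 9 neither way, and none had a group mean that reached 4.48.

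CD209 read 7.90, 7.65 and 7.71 in controls and 8.34, 8.37 and 8.27 with the inhibitor. All inhibitor arrays were above all controls, and the difference was 0.57 (SE 0.08; limma, adjusted p = 0.000958). The other 3 probe sets differed by −0.14 to 0.12 and were not called, and the mean of the 4 was not called either (0.11, adjusted p = 0.219). With the spike level as a covariate, CLEC12A (−0.70, adjusted p = 0.174), CLEC7A (−0.96, 0.139) and CD209 (0.43, 0.361) were no longer called. The spike level moved with the groups, and its part in these differences was not tested.

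CLEC11A was at 9.24 ± 0.03 in controls and 9.37 ± 0.05 with the inhibitor (SD, n = 3 each). Its difference of 0.13 was not called (interval −0.001 to 0.27, limma, adjusted p = 0.0972). It was called after quantile normalization (adjusted p = 0.0167) and with all 12 arrays in 1 fit (0.0396). Of 16 alternatives, 14 left it uncalled, and the smallest difference was 0.01. The other CLEC11A probe sets differed by −0.12 to 0.05 and were not called. CD69 lay at 2.69, 2.54 and 2.60 in controls and 2.46, 2.31 and 2.49 with the inhibitor, near the bottom of the scale, and the difference of −0.19 was not called (interval −0.38 to 0.003). CLEC4D, at 4.69, 4.86 and 4.73 against 4.89, 4.67 and 4.86, differed by 0.05 (interval −0.16 to 0.26) with overlapping groups. CLEC4A, CLEC4E and CLEC5A differed by −0.15, 0.09 and 0.09 and were not called, with all their group means below the filter level. All 5 tested members again had groups without overlap, as had 54.1% of all genes tested.

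Set side by side, the 4 groups ordered the members differently. The experiments differ in handling and may have been normalized apart, so levels across them are a description with no test. CLEC7A ran from 8.15 at 37 °C through 6.89 at 40 °C and 3.89 in controls to 3.30 with the inhibitor, with no overlap between neighbours. CLEC12A (7.61, 7.20, 4.89 and 4.16) and CD69 (5.05, 4.02, 2.61 and 2.42) followed the same order, also without overlap. Between the untransfected 40 °C cells and the nucleofected controls, which by the protocol were also differentiated at 40 °C, the means differed by 2.31 for CLEC12A; for CLEC7A and CD69 the controls, and for CD69 also the 40 °C cells, lay below the filter level, so the size of the step is not given. CLEC2B was ordered otherwise: its means at 37 °C, in controls and at 40 °C (8.14, 8.06 and 7.96) overlapped as neighbours, and only the inhibitor group stood apart. CD209 was highest at 37 °C (8.70), then with the inhibitor (8.33), then at 40 °C (7.96) and in controls (7.75), the last 2 overlapping. CLEC11A and CLEC4D had no one order. The brightest CLEC11A probe set was higher in the temperature experiment (10.00 and 9.91 against 9.37 and 9.24), 3 others were higher in the inhibitor experiment, such as 1 with 7.51 and 7.65 at 37 °C and 40 °C against 8.03 and 8.04 in controls and with the inhibitor, and the fifth lay between 9.21 and 9.29 in all groups. The brightest CLEC4D probe set reached the filter level in the inhibitor experiment (4.76 and 4.81) and not in the other (4.01 and 4.14), while the second stayed between 3.31 and 3.46.

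The genes whose profile over the 12 arrays was most like that of CLEC7A, by the root mean square difference of log2 values centred on each gene's mean, were GPR18 (0.17), a lipid-sensing receptor of leukocytes, NTS (0.31), which encodes the peptide neurotensin, and ANTXR1 (0.35), an anthrax toxin receptor. GPR18 had means of 8.95, 7.97, 5.07 and 4.39 at 37 °C, at 40 °C, in controls and with the inhibitor. The nearest to CLEC2B were LYZ (0.18), which encodes lysozyme, the mitotic kinase gene NEK2 (0.20) and THBS2 (0.26), which encodes a thrombospondin. LYZ had means of 10.40, 10.11, 10.32 and 7.98, so its largest step was also that of the inhibitor group. It was not the only one, since 1 of the 2 LYZ probe sets was called lower at 40 °C.

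Neighbours in the gene complex did not all move with the members. Between CD69 and OLR1 on chromosome 12 lie 8 further protein-coding genes in the RefSeq order (OLR1 included), of which KLRF1, CLEC1A and OLR1 were bright enough to test. None of these 3 was called at 40 °C, where CLEC7A and CLEC12A fell. In the longer stretch from CLEC4A to OLR1, 10 of 23 genes that are no members were tested. At 40 °C KLRG1 and PHC1 rose and CLEC2D, close to CD69, and A2M fell, beside 21.6% higher and 17.7% lower of all genes tested. Under the inhibitor 1 rose and 3 fell, beside 25.7% and 19.6%. In either direction 39.3% and 45.2% of all genes were called, so these counts do not set the stretch apart. With the inhibitor, OLR1 and KLRF1 fell and CLEC1A was not called (0.32, adjusted p = 0.0579). OLR1 (LOX-1), a lectin-like receptor for oxidised lipoprotein whose gene lies next to CLEC7A, went from 9.97 ± 0.01 to 7.69 ± 0.07, a 4.85-fold decrease (limma, adjusted p = 1.51e-06), with all 4 of its probe sets called lower.

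Among 24 tested genes of a list of 45 other C-type lectin domain genes, 2 rose and 3 fell at 40 °C, and 1 rose and 5 fell with the inhibitor, beside 21.6% higher and 17.7% lower, and 25.7% higher and 19.6% lower, of all genes tested. The count of increases with the inhibitor was not stable: it was 8 without inhibitor replicate 2, 3 without control replicate 2, 2 without inhibitor replicate 3 and 10 with array weights. At 40 °C, 5 fell without 40 °C replicate 2. At 40 °C, KLRG1, an inhibitory receptor of lymphocytes, was 2.47-fold higher and the thrombin cofactor THBD 1.50-fold higher. LY75 (DEC-205), an endocytic receptor, was 1.52-fold, the surfactant lectin SFTPD 1.30-fold and CLEC2D, a ligand of the natural killer receptor KLRB1, 1.27-fold lower. The CLEC2D call was lost with the spike covariate (limma, adjusted p = 0.0711). With the inhibitor, THBD was 1.63-fold lower, and FCER2, a low-affinity IgE receptor, was 1.49-fold higher. On their brightest probe sets, the mannose receptor MRC1, CLEC10A and CLEC6A were below the filter level in all 4 groups. Their means were 2.94 to 3.30, 3.73 to 4.35 and 3.57 to 3.66. In the fit of every probe set, 2 of 3 CLEC10A probe sets were called lower at 40 °C and 1 higher with the inhibitor.

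The signalling partners of the receptors were called in both directions at 40 °C, as were the genes tested as a whole. Of 15 tested adaptors and proximal kinases, 5 rose and 1 fell at 40 °C, with a median of 0.05 beside 0.01 for all genes, of which 21.6% rose and 17.7% fell; 3 rose without replicate 1 or 3 at 37 °C or replicate 1 at 40 °C. TYROBP, the adaptor of CLEC5A, was 1.22-fold higher (13.32 ± 0.03 against 13.04 ± 0.04), the adaptor HCST 1.20-fold and the kinase FYN 1.30-fold higher. With the spike level as a covariate, the calls of TYROBP (limma, adjusted p = 0.0748) and HCST (0.142) were lost. In that fit 1 gene of the list was higher and 0 were lower. FCER1G was 1.10-fold lower (adjusted p = 0.0498), a call that 11 of 16 alternatives did not keep. The brighter of the 2 SYK probe sets differed by 0.10 (SE 0.07) and was not called, while the other was called lower. CARD9 differed by 0.05 (SE 0.05) and PTPN6 by −0.11 (SE 0.06), and neither was called. Of 19 genes of the CARD9 complex and the NF-kB branch, 2 rose and 4 fell. MALT1 (1.19-fold) and BCL10 (1.17-fold), the partners of CARD9, and the kinase CHUK (1.36-fold) were lower. The NF-kB inhibitor NFKBIA was 1.45-fold higher. With the spike covariate, the calls of BCL10 (limma, adjusted p = 0.0927) and CHUK (0.0619) were lost, and 1 gene rose and 1 fell. RELB was called higher by 0.13, a call that 11 of 16 alternatives did not keep.

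Downstream, the NFAT and MAP kinase branch had 3 genes higher and 5 lower of 15 at 40 °C; 2 were lower without replicate 2 at 37 °C or 3 at 40 °C, and 3 without replicate 1 at 37 °C or 2 at 40 °C. EGR3, an immediate early gene induced through NFAT, was 2.18-fold lower (6.06 ± 0.09 against 7.19 ± 0.04), and NFATC1 and NFATC3 were 1.28-fold and 1.15-fold lower. The NFATC3 call was lost without replicate 1 or 2 at 37 °C or replicate 3 at 40 °C (adjusted p up to 0.0563). JUN was 1.56-fold and NFATC2 1.18-fold higher, the latter not with the mean of its probe sets (adjusted p = 0.153), and MAPK9 was called higher by 0.13, which 12 of 16 alternatives did not keep. Of 16 outputs, 1 rose and 6 fell, and 2 rose without replicate 3 at 37 °C. The chemokine CXCL8, the prostaglandin enzyme PTGS2 and the cytokine IL1B were among the lower, by 3.00-fold, 1.65-fold and 1.36-fold. The inflammasome sensor NLRP3 was 1.14-fold higher. Its call was lost with the spike covariate and without replicate 1 at 37 °C (limma, adjusted p 0.0513 to 0.322).

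**Figure D4:**
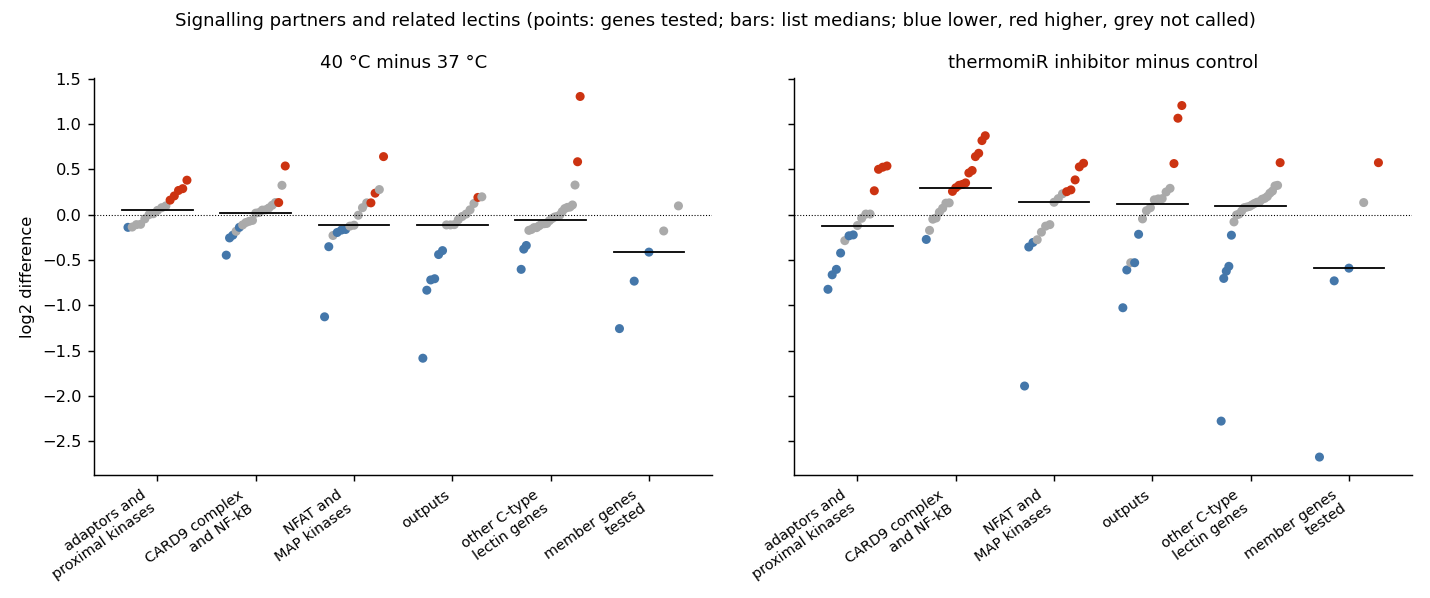
Log2 difference (y axis) of each tested gene in 5 lists of signalling partners, outputs and related lectins, and of the 5 tested members (x axis), for both comparisons; bars are list medians. The CARD9 and NF-kB list has its median at 0.02 at 40 °C and at 0.30 with the inhibitor. Of the 5 tested members, 3 were called lower at 40 °C, and 3 lower and 1 higher with the inhibitor. In the inhibitor experiment CLEC7A lay below the filter level in both groups. Over all 37 member probe sets, not shown here, the median differences were −0.09 and 0.05.

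With the inhibitor, 25.7% of all genes tested rose and 19.6% fell, against which the counts of partners stand. Of the 15 adaptors and proximal kinases, 4 rose and 6 fell, with a median of −0.12 beside 0.09 for all genes. The SRC family kinases LYN and SRC were 1.77-fold and 1.58-fold lower, the kinase BTK 1.52-fold, FCER1G 1.34-fold and TYROBP 1.17-fold lower, and the TYROBP call did not hold in the blocked fit, with the spike covariate or without replicate 3 of the controls (adjusted p 0.0523 to 0.519). VAV1 was 1.41-fold and PRKCD 1.44-fold higher. VAV3 was 1.45-fold higher, although another of its 6 sets fell and their mean was not called. SYK (−0.29, adjusted p = 0.0541) and CARD9 (−0.17, 0.0583) just missed the threshold, and each passed it under 6 of 16 alternatives. PTPN6 differed by −0.04 (SE 0.07).

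The CARD9 and NF-kB branch had 11 of 19 genes higher and 1 lower with the inhibitor, with a median of 0.30, beside 25.7% and 19.6% of all genes; 8 to 12 were higher in the alternatives other than the spike covariate. TNFAIP3, an inhibitor of NF-kB signalling, was 1.76-fold, NFKBIA 1.56-fold and RELB 1.40-fold higher. CHUK was called lower by 0.27, a call that 8 of 16 alternatives did not keep. In the NFAT and MAP kinase branch 5 rose and 3 fell of 15, and 1 rose by the mean of probe sets. PPP3R1, the regulatory subunit of the phosphatase calcineurin that activates NFAT, was 3.71-fold lower, its catalytic subunit PPP3CA was 1.44-fold higher, and EGR3 was 1.30-fold higher but not by the mean of its probe sets. The brightest JUN probe set was higher by 0.57 and the other 3 were called lower; MAPK9 also had probe sets called in both directions, and ITPR2 was not called by their mean. Of 16 outputs, 3 rose and 4 fell, with 5 higher without inhibitor replicate 2 and 2 lower without replicate 1 of either group. CXCL8 was 2.30-fold, TNF 2.09-fold and CCL3 1.48-fold higher, and CASP1 2.04-fold and IL1B 1.53-fold lower. The CXCL2 call (−0.22) was lost under 6 of 15 alternatives. With the spike covariate, of all these lists' calls with the inhibitor 3 remained, 1 each in the NFAT and MAP kinase genes, the outputs and the other lectins, which were the decreases of PPP3R1, CASP1 and OLR1.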

How the data were processed

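Messenger RNA of 12 samples was measured on Affymetrix PrimeView arrays, per the labels' protocols. The authors deposited log2 expression values of 49395 probe sets, with the unit read from the values; the sources used here name neither normalization nor software. Gene symbols came from the platform's gene table, and a gene was represented by its probe set of 1 symbol with the highest mean over 12 arrays. Of 18132 genes, 13909 at or above the 30th percentile (log2 4.48) were tested, each experiment alone, with limma 3.58.1 in R 4.3.3 (two-sided, Benjamini-Hochberg, threshold 0.05); all 49293 probe sets that are not controls were also fitted without a filter. An exact permutation test of 3 arrays against 3 cannot go below 0.1. The number of arrays limits the precision, and no 2 arrays shared more than 3.94% of their values. The procedure was tested on simulated data. Folds are ratios from differences of mean log2 values.

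The members and lists were chosen with earlier results of these data known. The text names all 10 members, up to 3 called genes per direction of each list by p, 3 genes of the most like profile, and MRC1, CLEC10A, CLEC6A, FCER1G, TYROBP, SYK, CARD9 and PTPN6; KLRF1 and the neighbours in the gene complex were added after their values were seen. Alternatives were quantile normalization, centring, a filter at the 50th percentile or none, averaged probe sets, all 12 arrays in 1 fit, the replicate number as a block, trend and robust eBayes, array weights, the mean of 24 poly-A spike probe sets as a covariate, and leaving out each array. Same-numbered arrays did not deviate together (r from −0.133 to 0.227 for temperature and from −0.604 to −0.154 for the inhibitor), so the numbers were not taken as pairs. Figures used Python 3.11.15 and matplotlib 3.10.9.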

Additional observations from a re-analysis of the deposited data

How the results depend on the processing

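No member changed sign with a call under any of the alternatives run, and 314 of 336 recomputed values kept their direction and side of the threshold, or, for counts, stayed within 1.5 times. At 40 °C the mean of probe sets gave 1 member called higher (CLEC11A), and the spike covariate gave 1220 genes higher, 1453 lower and 8 member probe sets called. With the inhibitor, quantile normalization and the fit of all 12 arrays each gave 2 members higher, and the mean of probe sets 0 (limma; none of the members tested that way was higher at an adjusted p under 0.05). The spike covariate gave 0 members higher, 1 lower, 1 member probe set called, and 52 genes higher and 184 lower, and array weights gave 5527 genes higher. With the replicate block, 3 members were lower and 0 higher at 40 °C, and 3 lower and 1 higher with the inhibitor, as without it, and no member's call changed. Leaving out any 1 array kept 3 members lower in each comparison, and 11 to 13 and 5 to 7 member probe sets called. CLEC7A fell below the filter with the mean of its probe sets or the 50th percentile filter and was not tested there. Signal near background limits CLEC4A, CLEC4D, CLEC4E, CLEC5A and CD69 in both experiments, and CLEC7A and CLEC12A in the inhibitor experiment.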
